A study of Mus musculus with 6 samples.

Results

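Regulatory CD4 T cells that carried RNA of Foxp3 were examined in the spleens of mice on 2 diets. These cells were selected on their raw counts of unique molecular identifiers (UMIs, each counting 1 captured RNA molecule). A droplet barcode was kept with 1000 or more UMIs, 400 or more genes and no more than 10% of its UMIs mitochondrial, and it counted as such a cell with a UMI of Cd3e or Cd3d, none of Cd8a or Cd8b1, at most 1 of Cd79a and at least 1 of Foxp3. A Cd4 UMI was not asked for. This gave 500 cells among 4237 gated CD4 T cells and 31457 kept spleen cells. Cd4 UMIs were present in 281 of the 500, from 44.3% to 62.0% per library, and in 57.1% of the gated cells without a Foxp3 UMI.

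The animals were wild-type C57BL/6 mice, 6 weeks old at the start, fed ND or MCDHFD for 7 weeks, and the submitters name the second group a model of MASH, a fatty liver disease with inflammation. Each diet has 3 libraries of mashed whole spleen, made with the 10x Genomics 3' v3.1 chemistry, and no label says whether a library came from 1 mouse or from several. The p-values therefore measure the spread between these libraries. ND replicates 1 to 3 gave 100, 73 and 71 Foxp3-positive cells, and the MCDHFD libraries gave 90, 96 and 70. Values of single libraries follow in this order.

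FOXP3 is the transcription factor that defines regulatory T cells, which restrain other T cells and keep tolerance to self. They hold high levels of the IL-2 receptor alpha chain (Il2ra), with which they take up IL-2, and of CTLA-4 (Ctla4), which removes costimulatory ligands from antigen-presenting cells. In the spleen they range from central cells, which keep homing genes such as Ccr7, to effector cells with higher Icos, Klrg1 and TNF receptor family genes. Helios (Ikzf2) is found in most regulatory T cells that arise in the thymus.

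ND replicate 2 and MCDHFD replicate 3 were deposited as filtered barcode lists and the other 4 libraries as unfiltered lists, so each diet holds 1 library of the filtered form. The 2 filtered libraries stood apart: the median mitochondrial share of all kept cells was 0.571% and 1.68% in them and 3.73% to 3.96% in the others. The form of the list was therefore a term in the diet model. MCDHFD replicates 1 and 2 were closer to each other than other pairs of 1 diet, with a chi-square per degree of freedom over genes of 1.74 in the Foxp3-positive cells, against 5.58 to 15.8. Of the other pairs, only ND replicates 1 and 3 shared a list form, and they stood at 5.58. These values include all Foxp3-positive cells. A single cell of ND replicate 3 held 9848 UMIs of the neutrophil genes S100a8 and S100a9. The most in a cell of MCDHFD replicates 1 and 2 was 683 and 167. What part such cells had in the values of the pairs was not tested. No barcode of a Foxp3-positive cell occurred in 2 libraries. The median depth of these cells was 4980 to 6045 UMIs in ND and 4057 to 6230 in MCDHFD, and the UMIs summed per library came to between 316239 and 731021.

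The label was checked against 4 genes that the gate did not use. Of the 500 cells, 33 had no UMI of Ctla4, Il2ra, Ikzf2 or Tnfrsf4 (OX40, a costimulatory receptor), 56 had UMIs of 1 of them, 137 of 2, 182 of 3 and 92 of all 4. Of the 3737 gated cells without a Foxp3 UMI, 2554 had none of the 4 and 23 had all. A Foxp3 UMI was seen in 0.0996% to 0.602% of B cells per library, a cell type that should lack the gene, at median depths of 3615 to 5914.5 UMIs, and in 1.46% to 2.89% of CD8 T cells, at 6450 to 9295 UMIs. Another 203 cells held a Foxp3 UMI but fell outside the gate, 72 for want of a Cd3e or Cd3d UMI, 82 for a Cd8a or Cd8b1 UMI and 49 for Cd79a.

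The Foxp3 threshold itself lies within low counts. Of the 500 cells, 231 had 1 Foxp3 UMI, 129 had 2 and 140 had 3 or more. Ikzf2 UMIs were present in 21.2% of cells with no Foxp3 UMI, in 70.1% of cells with 1 and in 88.5% of cells with 2 or more. For Ctla4 these shares were 10.6%, 51.1% and 68.8%. Cells just inside the threshold had the lowest median depth of the 3 groups, 5082 UMIs, against 6142 in cells with none and 5618 in cells with 2 or more. Among the Foxp3-zero cells, 67 held UMIs of Ctla4, Il2ra and Ikzf2 together, so that group holds some cells of the same marker pattern.

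Foxp3-positive cells made up a smaller share of the gated CD4 T cells in MCDHFD. The share was 15.1%, 15.6% and 12.1% in ND and 9.70%, 11.1% and 9.60% in MCDHFD. All 3 ND libraries lay above all 3 MCDHFD libraries. The means were 14.3% ± 1.88 (SD, n = 3) and 10.1% ± 0.83 (SD, n = 3), a difference of -4.16 percentage points with p = 0.1 in a two-sided exact permutation test, which is the smallest p that 3 against 3 can give. Within the unfiltered libraries the difference was -3.23 points, and between the 2 filtered ones it was -6.03. Thinned to 1000 UMIs per cell, the shares were 5.37% ± 1.66 in ND and 3.83% ± 0.28 in MCDHFD (SD, n = 3 each), again without overlap. The gated cells without a Foxp3 UMI include cells with markers of other kinds. Of them, 11.7% to 13.8% held Tyrobp UMIs, an NK cell marker, in ND libraries and 14.4% to 20.8% in MCDHFD. For the gamma delta T cell gene Trdc it was 5.58% to 8.72% and 2.73% to 4.29%. What part such cells had in the difference was not tested.

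As a share of all kept spleen cells the Foxp3-positive cells did not separate by diet. They were 1.53%, 2.23% and 1.43% of kept cells in ND and 1.36%, 1.46% and 1.98% in MCDHFD, and the 2 diets overlapped (exact permutation p = 0.6, two-sided, n = 3 per diet). Foxp3-zero gated cells, the rest of the gated CD4 T cells, were 10.3% ± 1.72 of kept cells in ND and 14.4% ± 3.77 in MCDHFD (SD, n = 3 each; exact permutation p = 0.2). Whether the smaller share within gated cells came with fewer regulatory T cells per spleen cannot be read from these shares, since the total cells of each spleen are not measured.

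**Figure D1:**
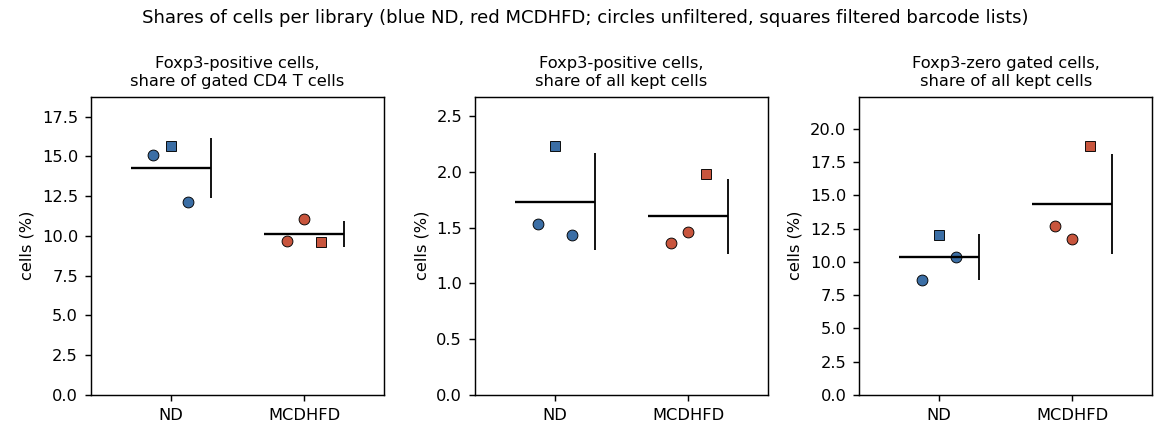
Share of cells per library in percent. Left, Foxp3-positive cells among gated CD4 T cells, where the ND libraries lie between 12.1% and 15.6% and the MCDHFD libraries between 9.60% and 11.1%. Middle, Foxp3-positive cells among all kept cells, where the diets overlap. Right, Foxp3-zero gated cells among all kept cells. Horizontal lines are means and vertical lines SD.

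Foxp3-positive cells that met a rule for dividing cells were found only in the ND libraries. A cell was called dividing when it held UMIs of at least 3 of 11 division genes, such as Mki67 and Top2a. They were 5, 2 and 2 cells in ND, or 5%, 2.74% and 2.82% of the Foxp3-positive cells, and 0 of 90, 96 and 70 cells in MCDHFD (exact permutation p = 0.1 over libraries, two-sided, n = 3 per diet, the smallest p possible). Of the 9, 8 held Ikzf2 UMIs, 7 held Ctla4 UMIs and 7 held at least 2 Foxp3 UMIs. The absence in MCDHFD holds for this rule. Mki67 UMIs were present in 9%, 5.5% and 7.0% of Foxp3-positive cells in ND and in 3.3%, 3.1% and 1.4% in MCDHFD. In the Foxp3-zero cells the dividing share was also without overlap, 3.01% ± 0.321 in ND against 1.43% ± 0.754 in MCDHFD (SD, n = 3 each). Of the 9 dividing cells, 7 exceeded 20000 UMIs, and 3 also held at least 10 UMIs of the neutrophil genes S100a8 and S100a9.

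Few cells carried much of the RNA. The dividing cells supplied 16.4%, 14.5% and 13.2% of the UMIs of the Foxp3-positive cells in ND. At least 10 S100a8 and S100a9 UMIs were found in 7 Foxp3-positive cells, 4 in ND and 3 in MCDHFD. The most in a single cell was 9848, in ND replicate 3. The summed level of 7 neutrophil markers in the Foxp3-positive cells was 774, 28910 and 27470 CPM (the share of all UMIs, scaled to the same fixed total in each library) in ND and 1591, 628 and 47.4 in MCDHFD. The diet comparison below is therefore given for all 500 cells and for the 487 left (234 ND, 253 MCDHFD) when both kinds of cells were left out, a choice made after seeing the data. Their level after that was 33.9 to 394 CPM in ND and 47.4 to 112 in MCDHFD.

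Between the diets, 77 of 6199 genes tested differed in all Foxp3-positive cells, 22 higher and 55 lower in MCDHFD (edgeR quasi-likelihood test on UMIs summed per library, Benjamini-Hochberg adjusted p under 0.05). That is 1.24% of the genes tested, 0.355% higher and 0.887% lower. In the 487 cells, 36 of 6008 genes differed, 15 higher and 21 lower, which is 0.599% (0.250% higher and 0.350% lower). Of the 77 and of the 36, 30 were the same genes. Of the 47 genes called only with all cells, 38 were lower and 9 higher, and 19 no longer had enough UMIs to be tested. With diet as the only term in edgeR, 14 genes were called in all cells (0.226%), and in the 487 cells none was, with 187 at an unadjusted p under 0.05. DESeq2 called 49 genes in all cells, and 27 with diet alone. Without ND replicate 2 the 77 calls fell to 27, without MCDHFD replicate 3 to 19 and without MCDHFD replicate 1 to 51.

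The genes with the largest falls in all cells were those of division and of neutrophil granules. Camp and Ngp encode neutrophil granule proteins, and their levels in CPM were 28.6, 3167 and 4282 for Camp in ND and 2.08, 1.57 and 3.38 in MCDHFD. Of the ND UMIs, the 10 ND cells left out held 99.2% for Camp and 99.2% for Ngp. For the histone gene Hist1h1b they held 97.9%, for the replication factor gene Pclaf 97.4%, for the tubulin regulator gene Stmn1 90.6%, for the topoisomerase gene Top2a 88.9% and for Mki67 84.7%. Of the 12 tested genes of a cell cycle list, 5 were lower in all cells, with a median log2 difference of -0.97. Of the 7 still tested in the 487 cells none was called, with a median of -0.07. The cells left out were picked by UMIs of division genes, Mki67 and Top2a among them, or of neutrophil genes. Their high shares of such genes, and the loss of these calls without them, therefore follow in part from that choice. The median over all genes tested was 0.01 with all cells and 0.00 with the 487.

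**Figure D2:**
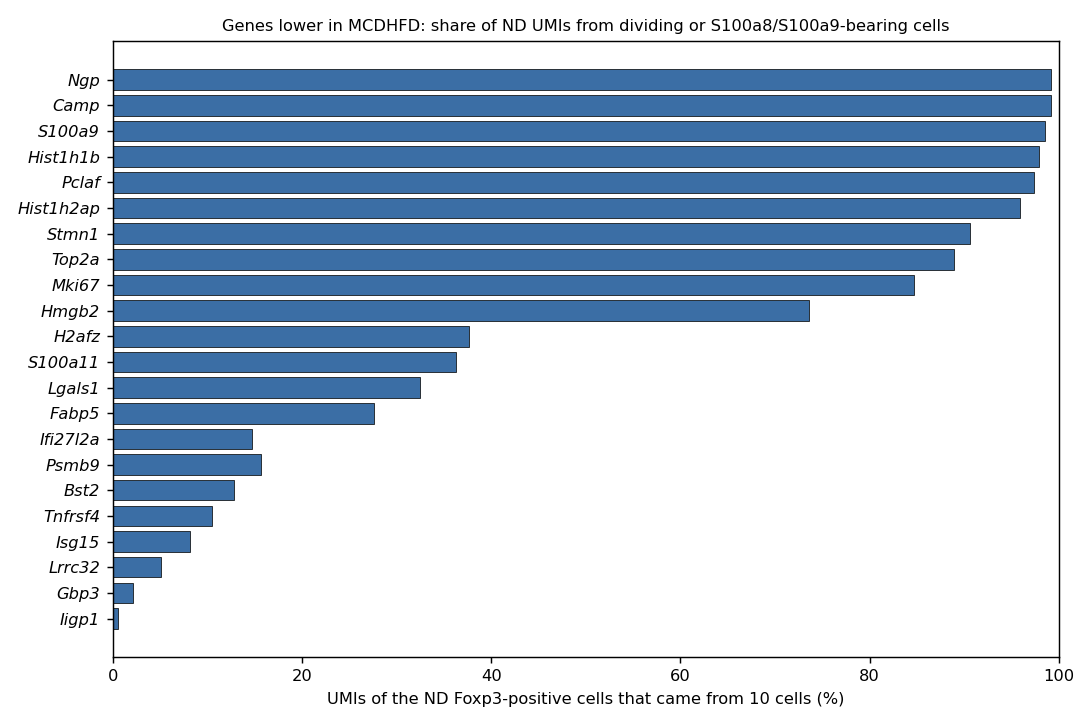
Share of the UMIs of each gene in the ND Foxp3-positive cells that came from the 10 ND cells that were dividing or held at least 10 S100a8 and S100a9 UMIs, in percent, for 22 genes lower in MCDHFD. The bars reach 99.2% for Ngp and Camp and 84.7% for Mki67, and stay at 14.7% for Ifi27l2a, 8.2% for Isg15 and 0.518% for Iigp1. Mki67 is among the genes by which dividing cells were picked, so high bars of division and neutrophil genes follow in part from the choice of cells.

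Some interferon-induced genes were lower in MCDHFD, while 27 of 31 tested genes of a type I interferon list and 28 of 32 of an interferon gamma list did not pass the test. The following CPM values come from the 487 cells. Ifi27l2a, an interferon-induced gene of mitochondria and the nuclear envelope, stood at 1368, 2053 and 1226 CPM in ND and at 569, 624 and 532 CPM in MCDHFD. Every ND library lay above every MCDHFD library, a separation that 9.15% of the genes tested showed (4.58% in each direction), and the log2 difference was -1.38 ± 0.203 (SE; edgeR adjusted p = 0.000905). Ifi27l2a UMIs were present in 90.2% of the 234 ND cells and 72.7% of the 253 MCDHFD cells.

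Isg15, a ubiquitin-like protein that is attached to other proteins in the antiviral response, stood at 56.8, 119 and 92.1 CPM in ND and at 8.49, 21.2 and 27.3 CPM in MCDHFD. The diets did not overlap, and the log2 difference was -2.18 ± 0.331 (SE; edgeR adjusted p = 0.00114). Bst2 (tetherin), which holds budding virus at the cell surface, stood at 115, 138 and 138 CPM in ND against 29.7, 47.2 and 64.8 CPM, a log2 difference of -1.49 ± 0.239 (SE; edgeR adjusted p = 0.00149). Ifi27l2a, Isg15 and Bst2 were among the genes called of the 31 tested in a type I interferon list, in which none was called higher. The list's median log2 difference was -0.37 against 0.00 over all genes, and with all 500 cells it was -0.28. Irf7, the transcription factor that amplifies the type I response, was not called (log2 difference -0.53 ± 0.411, edgeR adjusted p = 0.697).

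Among 32 tested genes of a list for interferon gamma and antigen presentation, 4 were lower and none higher. Iigp1, a GTPase that acts on vacuoles of intracellular microbes, stood at 154, 99.3 and 174 CPM in ND against 33.9, 68.4 and 10.2 CPM in MCDHFD. All ND libraries were above all MCDHFD libraries, with a log2 difference of -1.83 ± 0.269 (SE; edgeR adjusted p = 0.000905). The related GTPase genes Igtp and Gbp3 had log2 differences of -1.19 (edgeR adjusted p = 0.00524) and -1.53 (edgeR adjusted p = 0.016). Psmb9, a subunit of the immunoproteasome that cuts peptides for MHC class I, stood at 233, 268 and 187 CPM in ND and at 84.9, 116 and 133 CPM in MCDHFD (log2 difference -1.04 ± 0.197, edgeR adjusted p = 0.00656). Its partner Psmb8 was not called (log2 difference -0.56, edgeR adjusted p = 0.207). None of the 32 had a positive log2 difference, and the list's median was -0.52.

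Interferon-induced genes are often read out from the motif of GAAA, 2 bases of any kind and GAAA again, part of the site to which IRF proteins bind. The 150 bases before the start of 4 of these genes are shown. They were taken from the genes called lower, so their shared direction follows from the choice. Whether they move together was not tested. The sequences are from the RefSeq table of GRCm38.p6, each 5′ to 3′ on the strand of its gene and ending just before the start, with the motif in capitals (on either strand, overlapping copies merged). Of the interferon genes called, 5 were found in that table.
Isg15, chr4:156200819-156200968, minus strand: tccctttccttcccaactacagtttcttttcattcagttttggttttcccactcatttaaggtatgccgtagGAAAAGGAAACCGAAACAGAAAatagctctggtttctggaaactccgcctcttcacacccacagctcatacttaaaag
Bst2, chr8:71537473-71537622, minus strand: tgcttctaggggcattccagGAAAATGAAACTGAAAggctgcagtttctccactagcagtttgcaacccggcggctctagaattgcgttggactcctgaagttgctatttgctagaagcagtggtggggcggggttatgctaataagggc
Igtp, chr11:58199406-58199555, plus strand: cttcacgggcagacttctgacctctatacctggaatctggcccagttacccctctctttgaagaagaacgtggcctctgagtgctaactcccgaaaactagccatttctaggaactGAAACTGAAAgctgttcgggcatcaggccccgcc
Gbp3, chr3:142559894-142560043, plus strand: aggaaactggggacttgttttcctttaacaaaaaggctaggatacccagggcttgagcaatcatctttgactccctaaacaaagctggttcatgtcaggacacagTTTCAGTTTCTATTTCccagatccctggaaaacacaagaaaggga
Isg15 held 3 overlapping copies, Bst2 and Gbp3 held 2 each and Igtp held 1. The first base of the copy nearest the start lay 66 bases before it for Isg15, 124 for Bst2, 34 for Igtp and 39 for Gbp3. Psmb9 held none in its 250 bases before the start. Of 27025 genes in the table, 936 (3.46%) held the motif in 250 bases before the start on either strand, and 17 of 32 genes of the type I interferon list (53.1%) did. No such share is given for the interferon gamma list, to which Igtp and Gbp3 belong. A match shows only that these letters are there.

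Of the regulatory T cell genes, Tnfrsf4 was lower in MCDHFD. It stood at 300, 442 and 293 CPM in ND and at 180, 147 and 218 CPM in MCDHFD. The diets did not overlap in CPM, and the log2 difference was -0.91 ± 0.179 (SE; edgeR adjusted p = 0.00871). With all 500 cells, 1 cell held 44 of the 175 Tnfrsf4 UMIs of ND replicate 2, and 1 held 41 of the 124 of ND replicate 3. The share of those cells with a Tnfrsf4 UMI overlapped between diets. It was 64%, 64.4% and 43.7% in ND and 47.8%, 44.8% and 47.1% in MCDHFD. Lrrc32 encodes GARP, which holds latent TGF-beta on the surface of activated regulatory T cells. It stood at 64.1, 135 and 65.4 CPM in ND and at 27.6, 39.1 and 44.4 CPM in MCDHFD, again without overlap (log2 difference -1.15, edgeR adjusted p = 0.0411). With all 500 cells Lrrc32 was not called (log2 difference -1.01, edgeR adjusted p = 0.0987). Capg, an actin-capping protein gene, overlapped between diets (log2 difference -0.999, edgeR adjusted p = 0.043) and was not called with all cells (edgeR adjusted p = 0.11). Tnfrsf4, Lrrc32 and Capg were the genes called of 22 tested in a list of regulatory T cell identity, all lower, with a list median of -0.37.

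The defining genes did not pass the test. Foxp3, which the gate used, stood at 313, 552 and 366 CPM in ND and 333, 336 and 498 CPM in MCDHFD. Ctla4 stood at 282, 287 and 281 CPM in ND and at 253, 316 and 280 CPM in MCDHFD, with overlap (log2 difference 0.00 ± 0.175, edgeR adjusted p = 0.997). Il2ra stood at 326, 381 and 356 CPM in ND against 250, 259 and 225 CPM in MCDHFD. Its diets did not overlap, but the log2 difference of -0.52 ± 0.175 had an edgeR adjusted p of 0.233. Ikzf2 stood at 2137, 974 and 1863 CPM in ND and 1674, 1803 and 491 CPM in MCDHFD, low in the filtered library of each diet (log2 difference -0.44, edgeR adjusted p = 0.442). Izumo1r, the folate receptor 4 gene, had a log2 difference of -0.64 ± 0.18 without overlap and an edgeR adjusted p of 0.134.

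Genes higher in MCDHFD included several that glucocorticoids are known to induce. Fkbp5, a cochaperone of the glucocorticoid receptor, stood at 163, 44.2 and 92.1 CPM in ND and at 233, 412 and 205 CPM in MCDHFD. All MCDHFD libraries lay above all ND libraries (log2 difference 1.51 ± 0.248, edgeR adjusted p = 0.00183). Tsc22d3 (GILZ), which dampens inflammatory signalling, stood at 78.8, 91.1 and 70.3 CPM in ND and at 121, 178 and 297 CPM in MCDHFD (log2 difference 1.24 ± 0.222, edgeR adjusted p = 0.0038). The IL-7 receptor gene Il7r stood at 295, 259 and 330 CPM in ND and at 713, 630 and 683 CPM in MCDHFD. The diets were far apart, with a log2 difference of 1.195 ± 0.176 (SE; edgeR adjusted p = 0.000905), and Il7r UMIs were present in 57.3% of ND and 77.9% of MCDHFD cells. These 3 were the genes called among 11 tested of a glucocorticoid list, which had a median log2 difference of 0.70. With all cells the same 3 were called and the median was 0.75.

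Of 14 genes of central regulatory T cells, 2 were higher in MCDHFD, Il7r and Dapl1. Dapl1, a gene of resting T cells, stood at 18.3, 33.1 and 4.84 CPM in ND and at 65.8, 47.2 and 157 CPM in MCDHFD without overlap (log2 difference 2.19 ± 0.339, edgeR adjusted p = 0.00129). The list's median was 0.14. Tcf7 was not called although its diets did not overlap (log2 difference 0.60 ± 0.186, edgeR adjusted p = 0.194). Of 15 tested genes of effector regulatory T cells, 2 were lower, Lgals1 and Klrg1. Galectin-1 (Lgals1) stood at 286, 624 and 308 CPM in ND and at 136, 171 and 300 CPM in MCDHFD, with overlap through the filtered MCDHFD library (log2 difference -0.98 ± 0.178, edgeR adjusted p = 0.0046). The inhibitory receptor gene Klrg1 had a log2 difference of -1.84 ± 0.373 (edgeR adjusted p = 0.0124), resting on UMIs in 18 ND and 7 MCDHFD cells.

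Other genes higher in MCDHFD without overlap were Ston1, Pde3b, Setd4, Ust, Atp1b1, Zfp36l2 and Frmd5. Ston1 (stonin 1), an endocytic adaptor, stood at 18.3, 13.8 and 21.8 CPM in ND and at 50.9, 109 and 85.3 CPM in MCDHFD, in 8.12% of the ND cells and 27.3% of the MCDHFD cells (log2 difference 2.17 ± 0.347, edgeR adjusted p = 0.00149). Zfp36l2, which binds AU-rich RNA and speeds its decay, had a log2 difference of 1.28 ± 0.221 (edgeR adjusted p = 0.00287). Pde3b, a cyclic nucleotide phosphodiesterase, stood at 5.49, 19.3 and 9.69 CPM in ND and at 89.1, 65.2 and 30.7 CPM in MCDHFD (log2 difference 2.52 ± 0.44, edgeR adjusted p = 0.00287). Frmd5 rested on 3 ND and 7 MCDHFD cells, 1 of which held 61.8% of its MCDHFD UMIs. Lyz2, a macrophage and neutrophil gene called higher only in the 487 cells (log2 difference 3.67), overlapped between diets, and 1 cell held 81.8% of its MCDHFD UMIs. Among genes lower in MCDHFD were Fabp5, a fatty acid binding protein gene (log2 difference -2.32 ± 0.43, edgeR adjusted p = 0.00524), Rgs1, an inhibitor of chemokine receptor signalling (-1.17 ± 0.239, edgeR adjusted p = 0.0126), and the GTPase gene Gimap7 (-0.79 ± 0.186, edgeR adjusted p = 0.0438).

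Trnp1, the gene after which the series names a CD8 T cell population, encodes a nuclear protein. It had no UMI in any of the 244 ND Foxp3-positive cells and 10, 21 and 17 UMIs in MCDHFD, spread over 7, 10 and 13 cells. Summed over each diet it reached 33.2 CPM in MCDHFD and at most 1.78 in ND if 3 UMIs are allowed there. The ratio of these pooled values is 18.6. It does not take in the spread between libraries, so it is no lower bound for a single library. It was called in all 500 cells (edgeR adjusted p = 0.000595), and it was too low to be tested in the 487, although none of its UMIs were in the ND cells left out. In Foxp3-zero cells it stood at 0.796, 0.859 and 0 CPM in ND and at 14.9, 26.8 and 173 CPM in MCDHFD. Syt6 had no UMI in Foxp3-positive cells.

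**Figure D3:**
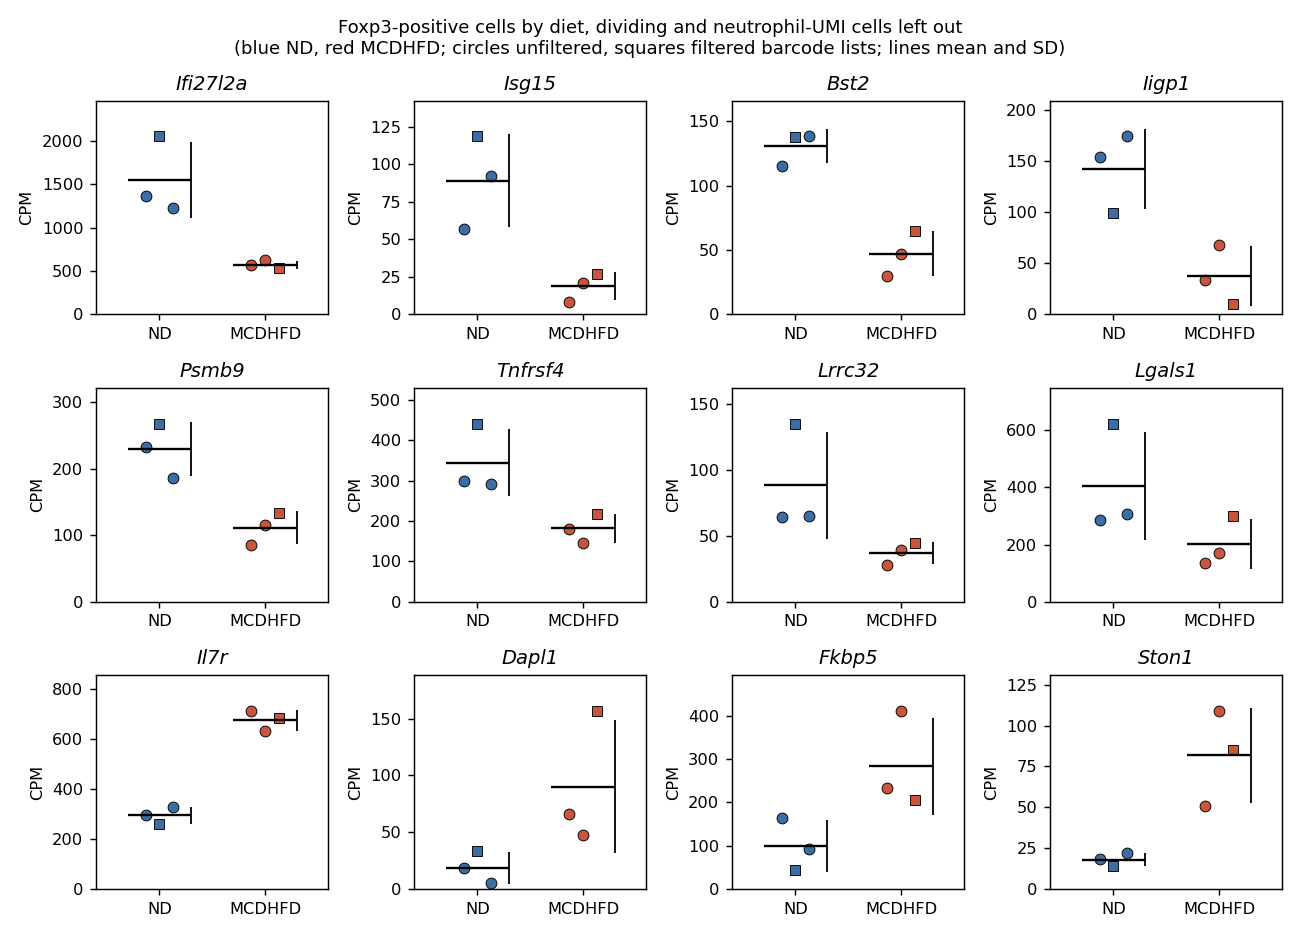
CPM of 12 genes per library in the 487 Foxp3-positive cells left after dividing and neutrophil-UMI cells were left out, by diet. Horizontal lines are means and vertical lines SD. Ifi27l2a lies between 1226 and 2053 CPM in ND and between 532 and 624 CPM in MCDHFD, and Il7r between 259 and 330 CPM in ND and between 630 and 713 CPM in MCDHFD. Lgals1 is the gene of the 12 whose diets overlap.

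Metabolic lists held no called genes in the 487 cells. None of 35 tested genes of oxidative phosphorylation passed the test, and their median log2 difference was -0.39, with 2 of 35 above 0. None of 17 tested genes of one-carbon and methionine metabolism passed, with a median of -0.01. The same held for 17 genes of sterol and fatty acid synthesis (median -0.43) and 10 of fatty acid oxidation (median 0.12). Of 15 genes of the IL-2 and STAT5 pathway, Lrrc32 alone was called (median -0.25).

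The gated CD4 T cells without a Foxp3 UMI come from the same libraries. The diet comparison in them therefore shares its ND and its MCDHFD libraries with the one above and is not independent of it. The values are given side by side, again with both kinds of cells left out. The log2 difference of Ifi27l2a was -1.38 in Foxp3-positive and -1.56 in Foxp3-zero cells, that of Isg15 -2.18 and -1.38, that of Bst2 -1.49 and -0.75 and that of Iigp1 -1.83 and -1.01. Tnfrsf4 stood at -0.91 and -1.12, Lgals1 at -0.98 and -0.86, Fkbp5 at 1.51 and 1.58 and Ston1 at 2.17 and 2.83. Each of these 8 genes was called in both kinds of cells (edgeR, adjusted p of at most 0.00911 in the Foxp3-zero cells). The log2 difference of Psmb9 was -1.04 in Foxp3-positive and -0.60 in Foxp3-zero cells and that of Igtp -1.19 and -0.66. Fabp5 stood at -2.32 and -0.03, and Pde3b at 2.52 and 0.05. The difference between the 2 responses was tested as an interaction. It called 6 of 10116 genes with all cells (0.0593%) and 5 of 9616 with both kinds of cells left out (0.0520%).

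Hdac9, a class IIa histone deacetylase, was the gene with the smallest p of that test, and its values include all cells unless stated. In Foxp3-positive cells it stood at 58.7, 55.0 and 190 CPM in ND and at 305, 553 and 94.7 CPM in MCDHFD, with overlap through the filtered MCDHFD library. In Foxp3-zero cells it stood at 124, 88.1 and 137 CPM in ND and at 39.7, 52.6 and 14.9 CPM in MCDHFD, without overlap. The log2 difference by diet was 1.63 in Foxp3-positive and -1.70 in Foxp3-zero cells, an interaction of 3.38 ± 0.322 (SE; edgeR adjusted p = 0.00125). With both kinds of cells left out the interaction was 3.38 ± 0.263 (SE; edgeR adjusted p = 3.73e-07). It was called under each of the 12 alternatives, at 2.85 to 4.02. Hdac9 UMIs lay in 49 ND and 61 MCDHFD Foxp3-positive cells, and 1 cell held 25.2% of the ND and another 24.8% of the MCDHFD UMIs.

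With both kinds of cells left out, the larger rise of Pde3b in Foxp3-positive cells was called (interaction 2.49 ± 0.393, edgeR adjusted p = 0.0128), as were those of Dapl1 (1.94 ± 0.31, edgeR adjusted p = 0.0128) and Il7r (0.78 ± 0.13, edgeR adjusted p = 0.0163). Few Foxp3-positive cells carried the first 2 genes. Pde3b UMIs lay in 8 ND cells (3.42%) and 26 MCDHFD cells (10.3%), and Dapl1 UMIs in 9 (3.85%) and 29 (11.5%). Pde3b itself was lower in Foxp3-positive than in Foxp3-zero cells, with log2 differences of -3.06 to -2.40 over 14 alternatives. Dapl1 was lower there too. What part cells of the Foxp3-zero kind with a stray Foxp3 UMI had in the rises of Pde3b and Dapl1 was not tested. For Psmb9 the interaction was not called, at -0.44 ± 0.167 (edgeR adjusted p = 0.637). The interaction of Fabp5 was -2.31 ± 0.517 (edgeR adjusted p = 0.113) and that of Ikzf2, whose log2 difference by diet was -0.44 in Foxp3-positive and -1.05 in Foxp3-zero cells, was 0.60 ± 0.127 (edgeR adjusted p = 0.0934).

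Set against the Foxp3-zero gated cells of the same libraries, the Foxp3-positive cells showed the profile by which the gate chose them, so these values are a description. 1389 of 9119 genes (15.2%) differed, 740 higher (8.11%) and 649 lower (7.12%), by the edgeR rule used above. All 21 measured genes of the identity list were higher, with a median log2 difference of 2.50. Tnfrsf4 stood at 286, 394 and 255 CPM in ND and at 166, 136 and 200 CPM in MCDHFD, against 31, 35.2, 18.9, 13.9, 12.03 and 16.6 CPM in the Foxp3-zero cells, in the same order. Every Foxp3-positive value was above every Foxp3-zero value. Its log2 difference was 3.50 ± 0.0985, that of Il2ra 3.44 ± 0.138, of Ctla4 3.22 ± 0.16 and of Ikzf2 3.00 ± 0.126 (SE). Nrp1, the semaphorin receptor neuropilin-1, differed by 2.50, Tnfrsf9 (4-1BB) by 2.69, Izumo1r by 2.13 and Tnfrsf18 (GITR) by 2.04.

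Genes less used for naming these cells also stood higher in each of the 6 libraries. They were Lclat1, an acyltransferase gene of cardiolipin remodelling (log2 difference 2.32 ± 0.116), Plcl1 (2.04 ± 0.121), Ift80, a gene of cilium transport (1.96 ± 0.151), and Myo1e, an unconventional myosin (2.09 ± 0.15). Of 16 genes of the IL-2 and STAT5 pathway, 12 were higher and none lower. Among them were Il2rb, the beta chain of the IL-2 receptor (1.25 ± 0.0938), and the feedback inhibitors of cytokine signalling Cish (2.16 ± 0.208) and Socs1 (1.29 ± 0.168). Of 17 genes of early T cell receptor signals 14 were higher, with Nr4a1 at 1.34 ± 0.183 and Cd83 at 2.71 ± 0.232, and of 15 genes of the NF-kB family 9 were, with the inhibitor gene Nfkbia at 1.01 ± 0.0841 and Rel at 0.78 ± 0.103.

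Of the 14 central genes, 10 were lower in Foxp3-positive cells and 2 higher. Lef1, a transcription factor of naive T cells, stood at 320, 342 and 393 CPM in ND and at 479, 400 and 385 CPM in MCDHFD, against 583, 651, 711, 817, 728 and 615 CPM in the Foxp3-zero cells of the same libraries (log2 difference -0.83 ± 0.0674). Dapl1 was lower by -2.20 ± 0.273 and Igfbp4 by -1.52 ± 0.131. The lowest genes by the naming rule included Cxcr6, a homing receptor (-3.76 ± 0.367), Ccl5, a chemokine of memory cells (-2.74 ± 0.35), and the killer lectin-like receptor genes Klrd1 (-2.81 ± 0.329) and Klrk1 (-2.63 ± 0.33). Markers of other cells were also lower, among them 3 of 3 measured of gamma delta T cells, 4 of 4 of erythroid cells, 8 of 10 of monocytes and macrophages and 4 of 8 of NK cells, so the Foxp3-zero gate holds more RNA of such cells; their part in the lower values was not tested. Car2 (-4.08 ± 0.253) is on the erythroid list, where Hbb-bs (-5.43 ± 0.52) and Hba-a2 (-5.25 ± 0.409), globin genes that the naming rule left out, were lower still.

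**Figure D4:**
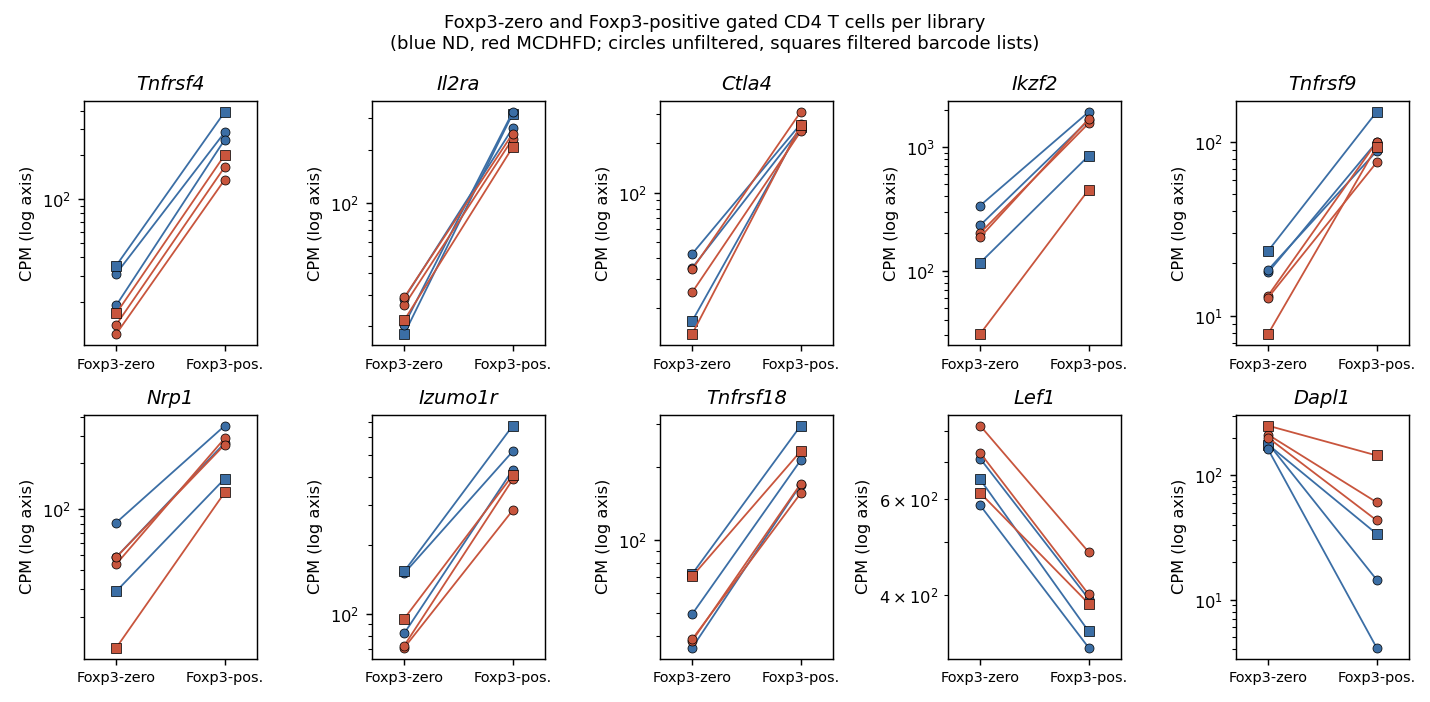
CPM on log axes of 10 genes in Foxp3-zero and Foxp3-positive gated cells, with 1 line per library. Tnfrsf4, Il2ra, Ctla4, Ikzf2, Tnfrsf9, Nrp1, Izumo1r and Tnfrsf18 rise in all 6 libraries, and Lef1 and Dapl1 fall in all 6. Dapl1 falls least in MCDHFD replicate 3, where the Foxp3-positive cells stood at 144 CPM.

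The Foxp3-positive cells were next split by Ikzf2, with 400 cells that held a UMI and 100 that did not. The split is tied to the Foxp3 count. Ikzf2 UMIs were present in 70.1% of cells with 1 Foxp3 UMI and in 88.5% with 2 or more. What part cells at the Foxp3 threshold had in the differences below was not tested. Cells without Ikzf2 UMIs were 9%, 26% and 14.1% of the Foxp3-positive cells in ND and 23.3%, 18.8% and 32.9% in MCDHFD, and the diets overlapped (exact permutation p = 0.3, two-sided, n = 3 per diet). Within libraries 90 of 2736 genes differed between the 2 kinds of cells (3.29%), 56 higher (2.05%) and 34 lower (1.24%) with Ikzf2. Hdac9 was at 70, 80.3, 242, 448, 722 and 161 CPM in the cells with Ikzf2 of the 3 ND and then the 3 MCDHFD libraries, and at 0, 12.8, 0, 61.2, 136 and 12.04 CPM in those without. It was higher with Ikzf2 in all 6 libraries (log2 difference 2.86 ± 0.287, edgeR adjusted p = 7.68e-07). Nrp1 followed (2.83 ± 0.301, edgeR adjusted p = 1.44e-06), then Tnfrsf9 (2.00 ± 0.362), the Wnt carrier gene Wls (1.89 ± 0.328), Eea1 of early endosomes (1.84 ± 0.357), Itm2c (1.82 ± 0.278), the transcription factor gene Tox (1.56 ± 0.158) and the integrin gene Itgav (1.53 ± 0.287).

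Of 13 identity genes tested in this split, 9 were higher with Ikzf2 and none lower (median 1.18), and of 9 effector genes 6 were higher, among them Icos (1.42 ± 0.257) and Maf (1.31 ± 0.239). Of 14 central genes, 6 were lower, namely Dapl1, Satb1, Igfbp4, Lef1, Tcf7 and Ccr7. Igfbp4 differed by -2.22 ± 0.312 and Satb1, a chromatin organiser, by -1.16 ± 0.163. Actn1 (-1.40 ± 0.222), Ugcg, which makes glucosylceramide (-1.55 ± 0.252), and Ly6c1 (-1.32 ± 0.213) were lower in all 6 libraries. Ctla4 (0.71 ± 0.212, edgeR adjusted p = 0.0666) and Il2ra (0.57 ± 0.197, edgeR adjusted p = 0.129) were not called. The median over all genes tested was -0.01.

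**Figure D5:**
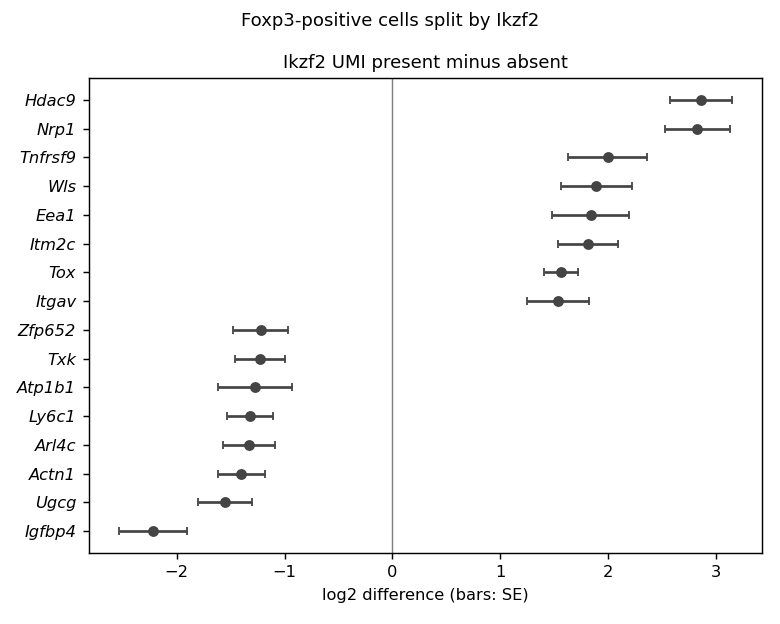
Log2 differences with SE of the 8 named genes in each direction, for Foxp3-positive cells with an Ikzf2 UMI minus those without, from sums of UMIs per library in 6 libraries. Hdac9 leads at 2.86, and Igfbp4 stands at -2.22.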

How the data were processed

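The deposited matrices of 6 mouse spleen libraries hold raw UMI counts, whole numbers for each gene and barcode. The submitters' processing notes name Cell Ranger 9.1.0, Seurat 4.3.0 and the build mm10, while the file headers name Cell Ranger 9.0.1 for the 4 unfiltered and 7.2.0 for the 2 filtered lists. The Foxp3-positive cells, gene lists and tests were chosen with earlier results of these data known.

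UMIs were summed per library and gate, scaled by TMM (trimmed mean of M values), filtered with filterByExpr and tested in edgeR 4.0.16 (R 4.3.3), with diet and list form as terms by diet, and library as a block between gates of cells. CPM values are on that scale, except the summed neutrophil markers and the Trnp1 values summed over each diet, which are unscaled shares of all UMIs. DESeq2 1.42.0 was an alternative. Shares of cells were compared by exact permutation (scipy 1.17.1). Scrublet (scanpy 1.11.5) called 75, 0 and 58 doublets among all kept cells in ND and 243, 200 and 0 in MCDHFD, 5 of them Foxp3-positive. It was run on each library, found none in the filtered ones and was used only in an alternative. The scripts were tested on simulated counts.

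Genes were named by a rule: the 5 markers, Trnp1, Syt6, Ston1 and Fkbp5, then the called genes of largest change whose mean log2 CPM was 5 or more and whose diets did not overlap or whose direction was the same in all 6 libraries (12 in each direction by diet and by Foxp3, 8 by Ikzf2, 5 in the interaction; gate, immunoglobulin, T cell receptor, haemoglobin and unnamed genes left out), and up to 4 members of each list with the smallest p. The same rule was applied to the 487 cells after seeing the data. Other genes named were chosen after their values were seen. Counts were made against whole genes, so genes that share reads with near-identical copies, among them the Hist1 histone genes, are uncertain. Some items are not reported here.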

Additional observations from a re-analysis of the deposited data

Results flagged for a closer look

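In 6 genes the difference by diet differed between Foxp3-positive and Foxp3-zero gated cells (edgeR interaction, adjusted p under 0.05, all cells). The interaction on the log2 scale was 3.385 for Hdac9, 2.064 for Pde3b, -2.149 for Stmn1, -3.565 for Hist1h2ap, -5.311 for Hist1h2ao and -5.805 for Hist1h1b. Stmn1 and the 3 histone genes are genes of dividing cells. The 10 ND cells left out, picked in part by division genes, held 90.6% of the Stmn1 UMIs and 97.9% of the Hist1h1b UMIs of the ND Foxp3-positive cells. With dividing and neutrophil-UMI cells left out, Hdac9 and Pde3b were still called, with Dapl1, Il7r and Ighm.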

How the results depend on the processing

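The difference in the share of gated cells was -1.541 points after thinning. Other settings kept its direction, and leaving out 1 library gave -3.493 to -5.24 points. The share of all kept cells is a different measure, in which the diets overlapped, and its difference was -0.1286 points. The count of genes called by diet was 14 with diet alone, 23 in the unfiltered libraries, 49 with DESeq2, 27 with DESeq2 and diet alone, 256 without the filter on low counts and 46 with at least 2 Foxp3 UMIs. It was 35 without the cells with neutrophil UMIs, 34 without dividing cells, 36 without both, 30 without cells above 20000 UMIs and 0 with diet alone and both left out (edgeR, 187 genes at an unadjusted p under 0.05). Leaving out 1 library gave 19 to 78 genes. None of the 48 named diet genes changed sign over these settings; 630 of their values stayed on their side of the threshold, 331 lost the call and 7 gained it.

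Replicate numbers did not pair the libraries: the correlations of same-numbered deviations were 0.221, -0.423 and -0.482. The fit with the replicate block in place of list form called 8 genes.

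Foxp3-positive against Foxp3-zero cells gave 2173 genes without the filter, 699 with at least 1 Cd4 UMI, 680 with cells paired by UMIs and 1045 to 1348 without 1 library. The Ikzf2 split gave 50 genes with DESeq2, 262 without the filter, 159 without both kinds of cells and 49 to 93 without 1 library. The interaction gave 68 genes without the filter and 1 to 29 without 1 library. It turned to 0.3645 for Hist1h2ap and 0.01991 for Stmn1 without cells above 20000 UMIs, and to 0.5951 for Stmn1 without both kinds of cells. Depth limits the Ikzf2 split, where the 100 cells without a UMI hold 51225 to 134651 UMIs per library. The cause of these changes was not tested.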
